A study of Homo sapiens with 6 samples.

Results

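The genes described here are the arginine methyltransferases other than PRMT1 and the adaptor genes of PRMT5, in HEK293T, a cell line established from human embryonic kidney, with and without a PRMT1 plasmid. The 10 genes were taken from a fixed list by symbol, out of 57500 Ensembl genes in the table. They are the type I enzymes PRMT2, PRMT3, CARM1 and PRMT6, the type II enzymes PRMT5 and PRMT9, the type III enzyme PRMT7, and the PRMT5 adaptors CLNS1A, RIOK1 and COPRS. All 10 were measured, and all 10 passed the filter for testing (1 TPM or more in no fewer than 3 libraries). TPM is a transcript level per length of the gene, scaled to the same total in each library. The control group is 3 libraries of wild type cells labelled as vector control and titled mock. The other group is 3 libraries of cells transfected by PolyJet with a pcDNA3 plasmid carrying PRMT1, with the genotype label PRMT1 OV. The labels give no time after transfection, do not say whether the mock cells received an empty plasmid, and do not say whether replicates were separate cultures, so p-values can speak only to how far these libraries scatter, and that scatter may be technical.

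Protein arginine methyltransferases move methyl groups from S-adenosylmethionine to arginine side chains. Type I enzymes, to which PRMT1 belongs, place 2 methyl groups on the same nitrogen (asymmetric dimethylarginine), type II enzymes place them on separate nitrogens (symmetric dimethylarginine), and type III enzymes stop at monomethylation. PRMT5, the main type II enzyme, works in a complex with WDR77 and is steered to its targets by adaptors. CLNS1A brings it the Sm proteins of the spliceosome, RIOK1 competes with CLNS1A for the same place on PRMT5 and brings other targets such as nucleolin, and COPRS directs it to histones.

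PRMT1 itself stood at 378, 397 and 368 TPM in control cells, against 71656, 62895 and 84923 TPM under PRMT1, so each library matched its label. Of 15341 genes tested with limma on log2(TPM + 1), 6190 were higher and 1325 lower at a Benjamini-Hochberg adjusted p under 0.05. The median log2 fold change over these 15341 was 0.30 as deposited. It was 0.006 after median-of-ratios scaling, -0.011 after quantile normalization and 0.398 with PRMT1 removed and the other genes rescaled. Changes of the 10 genes are therefore given as deposited and after median-of-ratios scaling, called scaled below. Depth could be recovered as 18196301 to 23162966 reads per library. Over the tested genes, vector control replicate 3 lay farthest from the other controls (SD of the log2 difference 0.373, against 0.299 and 0.321 for the others), and PRMT1 replicate 2 farthest in its group (0.337, against 0.288 and 0.313). Of the 6 markers chosen for HEK293T cells and kidney epithelium, 6 reached 1 TPM in a library (summed TPM of 1537 to 1663 in controls and 1052 to 1193 with PRMT1). None of the 6 markers of mature kidney cells did (0 of 6). Fibroblast markers summed to 12.3 to 17.1 and 9.34 to 10.8 TPM and leukocyte markers to 2.02 to 2.59 and 2.32 to 3.27 TPM. In each of these lists only 1 of 4 markers reached 1 TPM in a library. The part of either in the results was not tested. In bulk RNA, fewer cells that express a gene and less RNA per cell cannot be told apart.

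Within the family, PRMT6, PRMT7, PRMT9 and PRMT5 rose, by 3.43-, 3.36-, 3.14- and 1.87-fold in mean TPM, and they also passed after scaling. PRMT3 and RIOK1 rose in TPM as deposited but not after scaling. COPRS fell, while CARM1 and CLNS1A did not pass as deposited and were lower past the threshold after scaling. PRMT2 passed in neither. As deposited, 6 of the 10 genes were higher past the threshold, where 40.3% of all tested genes were, and 1 was lower, where 8.64% of all tested genes were. Scaled, 4 were higher and 3 lower, beside 23.5% and 24.1% of all tested genes. Under quantile normalization 5 were higher and 1 lower, beside 20.3% and 19.4%. Library values of the groups were fully separated for the 6 higher genes and for COPRS, a pattern shown upward by 49.8% and downward by 11.6% of tested genes. The median log2 fold change of the 10 was 0.58 as deposited and 0.23 scaled.

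**Figure D1:**
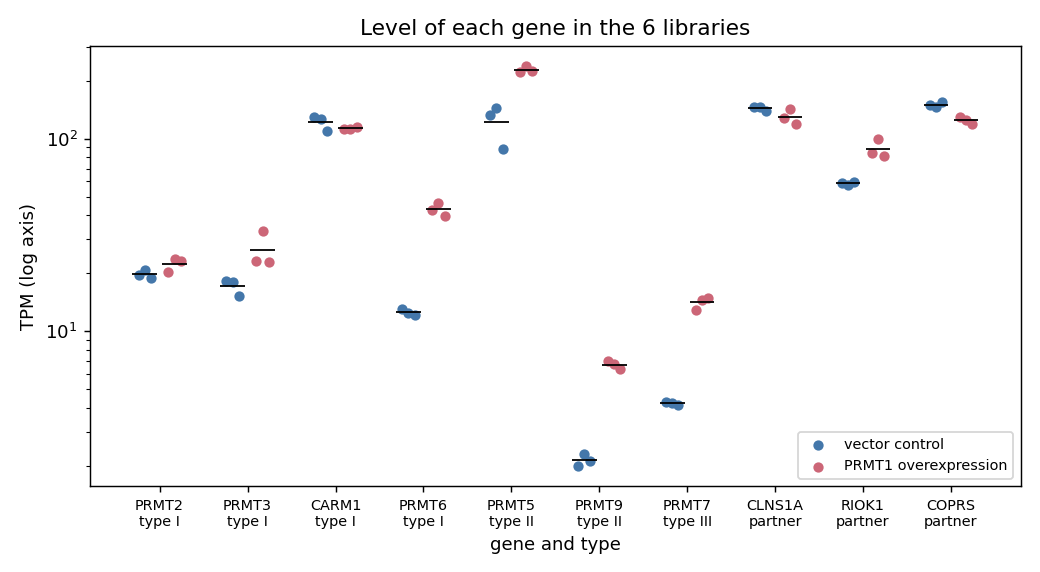
TPM (log axis) of the 10 genes in the 6 libraries, with a point per library and a bar at the group mean of 3. PRMT6, PRMT5, PRMT9 and PRMT7 sit clearly apart between groups, and the control point of PRMT5 at 88.5 TPM is the low vector control replicate 3.

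The type I genes split. PRMT6, a nuclear enzyme that places asymmetric dimethylation on arginine 2 of histone H3, had 13.0, 12.4 and 12.1 TPM in control cells against 42.8, 46.5 and 39.5 TPM under PRMT1. Every PRMT1 library was far above every control, with 308 to 1301 recovered reads behind each value. In the limma fit the log2 fold change came to 1.70 (SE 0.09; adjusted p = 5.35e-05 in limma) and 1.36 scaled (adjusted p = 5.87e-05). It lay 1.39 above the median of all genes. PRMT3, a cytosolic zinc finger enzyme known for methylating the ribosomal protein RPS2, had 18.1, 18.1 and 15.3 TPM in control cells against 23.3, 33.3 and 22.8 TPM under PRMT1. The groups did not overlap, and the PRMT1 replicate 2 was the high one. limma gave a log2 difference of 0.58 (SE 0.16; adjusted p = 0.0174 in limma). The call was lost after scaling (0.24, adjusted p = 0.108), under quantile normalization (0.25, adjusted p = 0.117) and after GC correction (0.05, adjusted p = 0.528). Without vector control replicate 3 and PRMT1 replicate 2 together the value was smaller, at 0.33, and the call was kept (limma adjusted p = 0.00785).

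CARM1 and PRMT2 overlapped between groups. CARM1, the coactivator-associated methyltransferase that modifies histone H3 and many splicing and transcription factors, had 130, 127 and 109 TPM in control cells against 113, 113 and 115 TPM under PRMT1. The control replicate 3 was below all 3 PRMT1 libraries and the other controls were above them. That left a log2 difference of -0.10 (SE 0.08; adjusted p = 0.328 in limma). The value passed downward after scaling (-0.46, adjusted p = 0.00305), after GC correction (-0.22, adjusted p = 0.0178) and once vector control replicate 3 was left out (-0.18, adjusted p = 0.0357), but not under quantile normalization (-0.14, adjusted p = 0.179), and it was 0.0058 with PRMT1 removed and the other genes rescaled (adjusted p = 0.958). PRMT2, an enzyme of weak activity in vitro that acts as a nuclear receptor coactivator, had 19.6, 20.9 and 19.0 TPM in control cells against 20.3, 23.8 and 23.0 TPM under PRMT1. The PRMT1 replicate 1 lay within the control range. In log2 terms the difference was 0.16 (SE 0.10; adjusted p = 0.187 in limma), with a reversed sign after scaling (-0.18), quantile normalization (-0.16) and GC correction (-0.18), and it passed upward with PRMT1 removed and the other genes rescaled (0.27, adjusted p = 0.0427).

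Promoter windows of the 10 genes (250 bases before to 50 after the RefSeq start, GRCh38.p14) were read from RefSeq, and all 10 genes matched. The runs below are the stretch of the window outside every GENCODE 29 exon, 5′ to 3′ on the gene's own strand, for the type I gene that rose most, for the type I gene with the highest level, and for the low type II gene PRMT9. Capitals mark matches to GGGCGG, the SP1-type GC box, on either strand. PRMT6 is at chr1:107056424-107056678 (plus strand), CARM1 at chr19:10871303-10871512 (plus strand) and PRMT9 at chr4:147684231-147684413 (minus strand).
PRMT6: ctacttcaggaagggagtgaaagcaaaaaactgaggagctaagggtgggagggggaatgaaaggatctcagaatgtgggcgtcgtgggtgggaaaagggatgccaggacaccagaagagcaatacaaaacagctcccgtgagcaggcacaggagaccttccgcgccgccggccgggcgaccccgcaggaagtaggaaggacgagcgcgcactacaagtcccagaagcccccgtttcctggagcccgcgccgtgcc
CARM1: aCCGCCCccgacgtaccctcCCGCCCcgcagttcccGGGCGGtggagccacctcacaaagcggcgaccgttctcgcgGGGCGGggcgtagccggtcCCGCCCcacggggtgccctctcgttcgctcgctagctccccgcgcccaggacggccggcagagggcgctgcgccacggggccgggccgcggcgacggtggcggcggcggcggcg
PRMT9: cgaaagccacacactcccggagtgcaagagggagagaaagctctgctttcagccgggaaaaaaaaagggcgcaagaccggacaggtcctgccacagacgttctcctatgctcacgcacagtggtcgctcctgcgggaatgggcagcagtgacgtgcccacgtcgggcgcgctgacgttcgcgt
The CARM1 run held 5 GC boxes, and the PRMT6 and PRMT9 runs held 0. CARM1 has another RefSeq window, at chr19:10872179-10872478 (69.0% GC), which held 2 GC boxes and is not printed. PRMT7 also has more than 1 window. Over the full windows, 8 of the 10 genes had a GC box, which 44.9% of 34796 RefSeq promoters of the same length hold. PRMT6 and PRMT5 were the genes without it, and PRMT5 alone of the 10 held the CCAAT box (CCAAT, 34.6% of all promoters) and the YY1 motif (AAGATGG, 5.8%). The ETS core (CCGGAAG, 10.2%) was in the windows of PRMT3, CLNS1A and RIOK1, and the E-box (CACGTG, 7.2%) and CRE-type motif (TGACGNNA, 7.5%) in that of PRMT3. PRMT6 held none of these 6 motifs. The motifs were searched on both strands, were chosen with the expression values known, and a match is not a bound site. GC content of the windows ran from 54.0% in CLNS1A to 82.3% in CARM1 and COPRS (median of all promoters 58.7%).

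Both type II genes rose. PRMT5 had 133, 145 and 88.5 TPM in control cells against 222, 239 and 224 TPM under PRMT1. The groups did not overlap, the PRMT1 libraries were close to each other, and control replicate 3 was low. On the log2 scale it changed by 0.93 (SE 0.17; adjusted p = 0.00349 in limma). It was 0.57 scaled (adjusted p = 0.0102), and leaving out vector control replicate 3 gave 0.71 (adjusted p = 0.000747). PRMT9, which places symmetric dimethylation on the splicing factor SF3B2, had 1.99, 2.30 and 2.12 TPM in control cells against 6.97, 6.75 and 6.37 TPM under PRMT1. It was the lowest gene of the 10, with 50 to 183 recovered reads per library, and the groups were well separated. The fitted log2 change was 1.30 (SE 0.12; adjusted p = 0.000232 in limma) and 1.02 scaled (adjusted p = 0.000575). The value was 0.71 with 5 TPM, 1.61 with 0.1 TPM, 0.84 under quantile normalization and 0.84 after GC correction.

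PRMT7, the type III enzyme, had 4.27, 4.26 and 4.11 TPM in control cells against 12.9, 14.6 and 15.0 TPM under PRMT1. The control values spread by an SD of 0.09 and those of the PRMT1 libraries by 1.09, with a wide gap between them. In the fit this was a log2 change of 1.54 (SE 0.10; adjusted p = 9.48e-05 in limma) and 1.22 scaled (adjusted p = 0.000227). The exons of PRMT7 in GENCODE 29 cover 9458 bases, the longest of the 10 genes against 1432 bases for COPRS, the shortest, and the TPM of a gene depends on the length assigned to it.

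The PRMT5 adaptors went in different directions. RIOK1, a kinase-family adaptor, had 58.5, 57.7 and 59.6 TPM in control cells against 84.5, 99.9 and 81.0 TPM under PRMT1. All 3 PRMT1 libraries were above all controls. The limma estimate on the log2 scale was 0.58 (SE 0.09; adjusted p = 0.00189 in limma), a call lost after scaling (0.23, adjusted p = 0.0563) and after GC correction (0.20, adjusted p = 0.0509) and held under quantile normalization (0.48, adjusted p = 0.0033). CLNS1A, the Sm protein chaperone, had 147, 147 and 139 TPM in control cells against 129, 143 and 119 TPM under PRMT1. The PRMT1 replicate 2 overlapped the control range. On the log2 scale the fit gave -0.15 (SE 0.08; adjusted p = 0.172 in limma). It passed downward after scaling (-0.50, adjusted p = 0.00121), after GC correction (-0.62, adjusted p = 0.0003) and without PRMT1 replicate 2 (-0.22, adjusted p = 0.0459), but not under quantile normalization (-0.14, adjusted p = 0.118). COPRS had 150, 146 and 156 TPM in control cells against 130, 125 and 120 TPM under PRMT1. All PRMT1 libraries were below all controls. The log2 difference amounted to -0.27 (SE 0.07; adjusted p = 0.0124 in limma) and -0.62 scaled (adjusted p = 0.00197). The call was lost on leaving out PRMT1 replicate 3 (-0.24, adjusted p = 0.0506) and with PRMT1 removed and the other genes rescaled (-0.16, adjusted p = 0.0687). The count of genes lower past the threshold among the 10 was 2 without vector control replicate 3, 2 without PRMT1 replicate 2 and 0 without PRMT1 replicate 3, where 10%, 8.68% and 7.29% of all tested genes were lower.

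A ratio within a library is unaffected by a factor applied to the whole library, as in median-of-ratios scaling, though quantile normalization and GC correction can move it. The log2 ratio of PRMT5 to CLNS1A was -0.14, -0.02 and -0.65 in the controls and 0.79, 0.74 and 0.91 in the PRMT1 libraries. PRMT5 was thus below CLNS1A in all controls and above it in all PRMT1 libraries, a difference of 1.08. To COPRS the log2 ratio was -0.17, -0.01 and -0.82 in the controls and 0.77, 0.93 and 0.90 in the PRMT1 libraries, a difference of 1.20. Each of these gave an exact two-sided permutation p of 0.1 (adjusted 0.15 over the 3 partners), and 0.1 is the smallest that 3 against 3 libraries allow. To RIOK1 the ratio was 1.19, 1.33 and 0.57 in the controls and 1.39, 1.26 and 1.47 in the PRMT1 libraries. Those groups overlapped (difference 0.34, exact permutation p = 0.2), and the difference was 0.11 without vector control replicate 3. Without that library the differences were 0.89 to CLNS1A and 0.96 to COPRS. The summed TPM of the 3 adaptors was 353 ± 2.25 for the controls and 344 ± 24.3 with PRMT1 (SD, n = 3 each), so PRMT5 went from 0.346 ± 0.086 to 0.665 ± 0.031 of that sum. WDR77, the constant partner of PRMT5, had 105 ± 2.45 and 107 ± 4.67 TPM (SD, n = 3 each), or 0.02 on the log2 scale (limma adjusted p = 0.834), and was lower past the threshold after scaling (-0.34, adjusted p = 0.00995) but not under quantile normalization (-0.02, adjusted p = 0.829). As a difference of fitted log2 fold changes, PRMT5 against CLNS1A, COPRS and RIOK1 was 1.07, 1.19 and 0.35 as deposited, 1.12, 1.23 and 0.49 under quantile normalization and 1.26, 1.14 and 0.44 after GC correction.

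**Figure D2:**
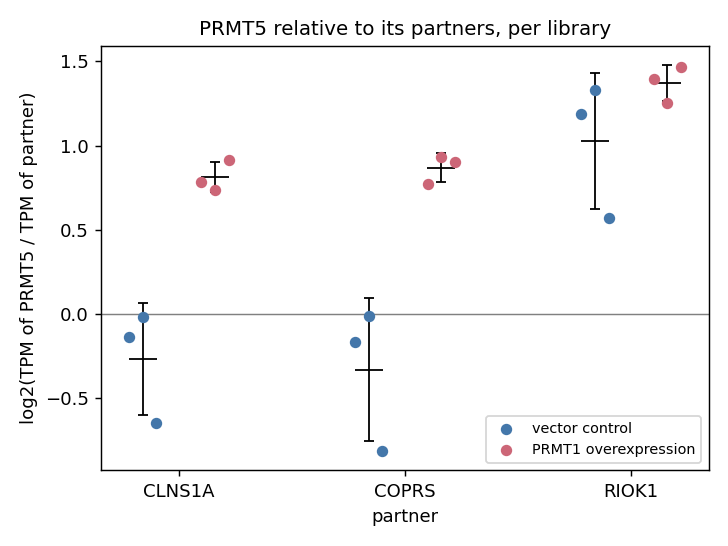
log2 ratio of the TPM of PRMT5 to that of CLNS1A, COPRS and RIOK1, with a point per library and the mean and SD (n = 3). The ratios to CLNS1A and COPRS lie below 0 in the controls and between 0.74 and 0.93 in the PRMT1 libraries, and vector control replicate 3 is the low control point in each.

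Shares of the summed TPM of the 7 enzymes give the make-up of the family without a factor per library. The sum was 300 ± 43.3 TPM in control cells against 454 ± 19.3 TPM under PRMT1 (SD, n = 3 each). Type I genes held 57.6 ± 4.17% of it in the controls and 45.2 ± 0.21% in the PRMT1 libraries (SD, n = 3 each). Type II genes held 41.0 ± 4.36% and 51.7 ± 0.22%, and type III 1.42 ± 0.19% and 3.11 ± 0.22%. A lower share is not a lower level, since the sum rose. Of the type I genes only CARM1 had a lower mean TPM as deposited (122 in controls and 113 with PRMT1). The differences of -12.4 (type I) and 10.7 (type II) points were -10.1 and 8.30 without vector control replicate 3. All 3 types were separated between groups (exact two-sided permutation p = 0.1 each, the smallest possible, adjusted 0.1). Full separation is common here, shown in TPM by 49.8% of tested genes upward and 11.6% downward. Shares also add up to the whole, so a larger share of any type lowers the others.

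Within type I, CARM1 and PRMT2 held lower shares in the PRMT1 libraries and PRMT6 a higher one. CARM1 took 40.6, 38.5 and 43.7% of the family in the controls and 25.5, 23.7 and 25.8% in the PRMT1 libraries. PRMT2 went from 6.68 ± 0.78% to 4.92 ± 0.30%, and PRMT6 from 4.23 ± 0.56% to 9.45 ± 0.51% (SD, n = 3 each). PRMT5 took 41.6, 43.9 and 35.3% in the controls and 50.4, 50.1 and 50.2% in the PRMT1 libraries. In the controls the means of CARM1 and PRMT5 were level at 122 TPM each. PRMT5 was above CARM1 in vector control replicates 1 and 2 and below it in vector control replicate 3. PRMT5 led in all 3 PRMT1 libraries. PRMT7 went from 1.42% to 3.11% and PRMT9 from 0.72 ± 0.12% to 1.48 ± 0.09%. These 6 genes had non-overlapping shares (exact permutation p = 0.1, adjusted 0.117 over the 7 genes). In TPM, 49.8% of tested genes were fully separated upward and 11.6% downward, and the 7 shares are not independent of each other. PRMT3 held 5.75 ± 0.31% and 5.79 ± 1.03%, which overlapped (exact permutation p = 1), and the sign of its difference of 0.05 points turned to -0.55 without PRMT1 replicate 2 and -0.09 without vector control replicate 2. Counted together with PRMT1, the 7 enzymes made 43.9 ± 2.98% of the family TPM in control cells against 0.628 ± 0.116% in the PRMT1 libraries.

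**Figure D3:**
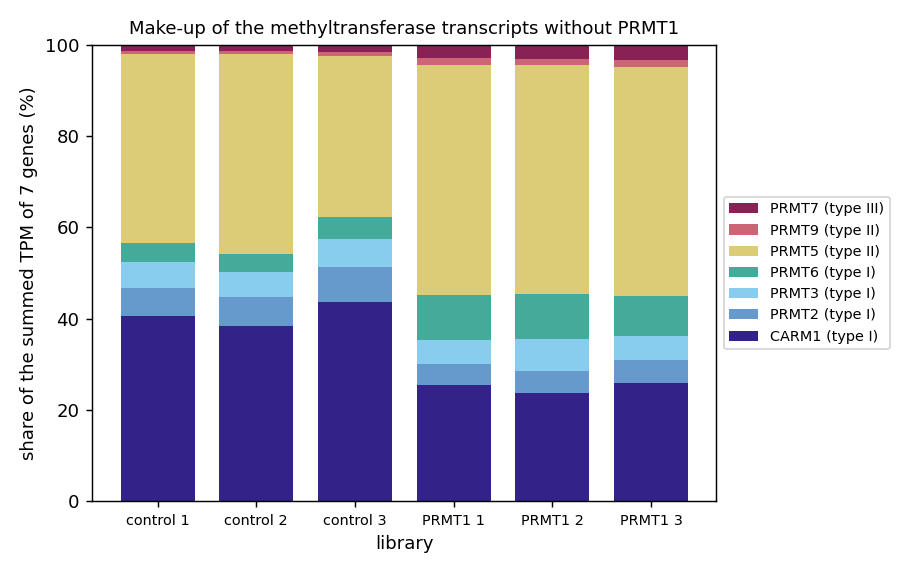
Share (%) of each of 7 methyltransferase genes in their summed TPM, PRMT1 left out, as stacked bars for each library. The CARM1 segment shrinks from between 38.5 and 43.7% to between 23.7 and 25.8%, and the PRMT5, PRMT6, PRMT7 and PRMT9 segments widen.

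Ordered by mean TPM, the controls ran COPRS, CLNS1A, PRMT5, CARM1, RIOK1, PRMT2, PRMT3, PRMT6, PRMT7 and PRMT9. Among these neighbours, COPRS and CLNS1A, CLNS1A and PRMT5, and PRMT5 and CARM1 overlapped in their library values. In the PRMT1 libraries the order was PRMT5, CLNS1A, COPRS, CARM1, RIOK1, PRMT6, PRMT3, PRMT2, PRMT7 and PRMT9, and only CLNS1A with COPRS and PRMT3 with PRMT2 overlapped. PRMT6 thus moved from below PRMT2 and PRMT3 to above them.

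The effect of scaling differed by gene. Only PRMT5, PRMT6, PRMT7 and PRMT9 were higher past the threshold under all 17 alternatives. With the filter raised to 5 TPM, PRMT7 and PRMT9 were tested only through the PRMT1 libraries, where they are high. That setting is therefore not read as support for their rise. Relative to the median of all genes as deposited, CARM1 lay 0.41 below, CLNS1A 0.45 below and COPRS 0.57 below.

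**Figure D4:**
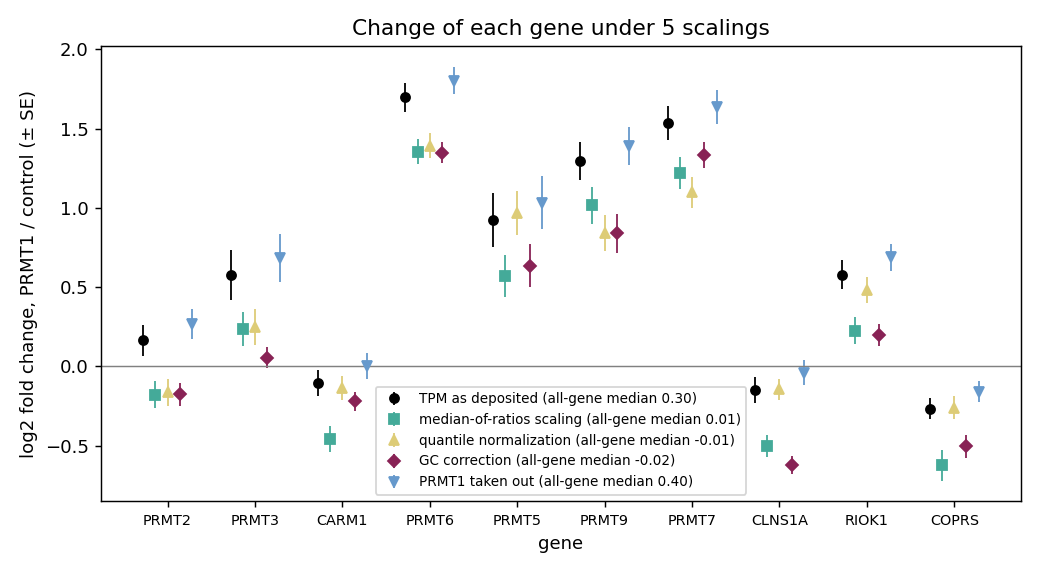
log2 fold change (PRMT1 over control, bars are the SE from limma) of the 10 genes in TPM as deposited and under 4 other scalings, with the median of all genes given in the legend. PRMT5, PRMT6, PRMT7 and PRMT9 stay above 0.5 throughout, PRMT2 changes sign, and CARM1 is at 0.0058 when PRMT1 is taken out.

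Exonic GC content of the longest transcript ran from 34.8% in PRMT3 to 61.9% in CARM1. PRMT7, at 57.4%, and PRMT6, at 47.4%, had the largest log2 fold changes of the 10. The 4 genes called higher under each setting had levels from the 32nd to the 95th percentile of tested genes (PRMT9 and PRMT5). Counts were possibly not strand-aware, since the strand setting is not given in the sources used here. CARM1 shares 886 exonic bases with YIPF2 on the other strand (82.0 ± 2.84 and 72.1 ± 5.93 TPM, not past the threshold as deposited and lower past it after scaling, at -0.54 with adjusted p = 0.00648, as CARM1 was), and PRMT5 shares 938 with PRMT5-AS1 (0.294 ± 0.074 and 0.135 ± 0.036 TPM). RIOK1 shares 248 bases with CAGE1 and PRMT7 shares 239 with SMPD3, both under 0.5 TPM in each library. PRMT9 overlaps TMEM184C on the other strand without shared exonic bases. TMEM184C rose from 6.41 ± 1.33 to 15.7 ± 2.22 TPM (log2 fold change 1.18, limma adjusted p = 0.00101). The pseudogenes CARM1P1 and CLNS1AP1 were listed at 0 in all libraries, and PRMT5P1 and COPRSP1 only in PRMT1 replicate 2, at 1.04 and 0.293 TPM.

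The gene most like PRMT5 over the 6 libraries was SLC7A1, a cationic amino acid transporter gene, with a Pearson correlation of log2(TPM + 1) of 0.9996. SNX11 and LRRC47 followed at 0.9990 and 0.9985. Such values are common here, since 25.8% of tested genes correlated with PRMT5 at 0.9 or more across these libraries and the groups differ in much of the transcriptome. Of the partners, RIOK1 correlated with PRMT5 at 0.86, CLNS1A at -0.47, COPRS at -0.94 and WDR77 at 0.24 (n = 6 libraries, as a description).

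Other genes of arginine methylation were read from lists of 67 genes, of which 62 were tested. As deposited 28 rose and 10 fell, where 40.3% and 8.64% of all tested genes did. Scaled, 16 were higher and 22 lower, beside 23.5% and 24.1%, and under quantile normalization 17 and 8, beside 20.3% and 19.4%. Each of these counts of higher genes includes the transfected PRMT1, and also TOP3B, which passed the filter only through the PRMT1 libraries. In the family outside the 10 genes, METTL23, a methyltransferase reported on histone H3, rose from 26.0 ± 0.92 to 54.4 ± 3.52 TPM (log2 fold change 1.04, limma adjusted p = 0.000143), also after scaling (0.69). NDUFAF7, which methylates a mitochondrial complex I subunit, rose by 0.40 (adjusted p = 0.0274), not after scaling (0.07, adjusted p = 0.673). PRMT8, the closest relative of PRMT1, was not tested. It was listed at 0 in the 3 controls, with 9, 5 and 3 recovered reads in the PRMT1 libraries, and its resemblance to PRMT1 makes the assignment of these reads uncertain.

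Reported substrates of the 10 enzymes and adaptors moved in both directions. Of 21 tested, 6 rose and 6 fell as deposited, beside 40.3% and 8.64% of all tested genes. Scaled, 3 were higher and 12 lower, beside 23.5% and 24.1% of all tested genes. Under quantile normalization 4 were higher and 4 lower, beside 20.3% and 19.4%. The median log2 fold change as deposited was -0.0001, beside 0.30 of all genes. COIL, the scaffold of Cajal bodies, rose from 22.9 ± 1.80 to 82.2 ± 14.4 TPM (log2 fold change 1.79, limma adjusted p = 0.000116), and the coactivators NCOA3 and EP300 rose by 0.90 and 0.74 (adjusted p at most 0.0107), neither under quantile normalization (adjusted p = 0.0624 and 0.0872). RPS2, a PRMT3 substrate, PABPC1, a CARM1 substrate, E2F1, and SF3B2, the PRMT9 substrate, fell by 0.28, 0.42, 0.36 and 0.31 on the log2 scale (adjusted p at most 0.00624), PABPC1 not under quantile normalization (-0.08, adjusted p = 0.538). As deposited, PRMT3 and PRMT9 were thus higher while RPS2 and SF3B2 were lower in the same libraries, though the PRMT3 call was lost after scaling. These pairs were picked from 21 substrates, of which 6 rose and 6 fell, and a link between enzyme and substrate levels was not tested.

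The Sm core and SMN complex, where PRMT5 and CLNS1A act, held 17 tested genes. Of these, 7 rose and 1 fell as deposited, beside 40.3% and 8.64% of all tested genes. Scaled, 6 were higher and 6 lower, beside 23.5% and 24.1%. Under quantile normalization 7 were higher and 0 lower, beside 20.3% and 19.4%. The median log2 fold change was 0.30 as deposited, equal to that of all genes. GEMIN4, GEMIN7, GEMIN2 and GEMIN8, subunits of the SMN complex, rose by 1.40, 1.31, 0.91 and 0.74 (limma adjusted p at most 0.00144), the last not under quantile normalization (0.34, adjusted p = 0.0711). The Sm protein gene SNRPD2 fell by 0.40 (adjusted p = 0.00269), a call lost under quantile normalization (-0.16, adjusted p = 0.185). SNRPB, SNRPD1 and SNRPD3, whose proteins PRMT5 methylates, had values of 0.02, 0.00 and -0.14 (adjusted p = 0.817, 0.999 and 0.143) and were lower past the threshold scaled. Under quantile normalization SNRPB was higher past it (0.30, adjusted p = 0.0127) and the other two passed in neither direction. SMN1 and SMN2 are near-identical copies, so their separate values are uncertain.

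Of 12 tested readers and turnover genes of methylarginine, 4 rose and 1 fell, beside 40.3% and 8.64% of all tested genes. Scaled, 2 were higher and 3 lower, beside 23.5% and 24.1%. Under quantile normalization 2 were higher and 1 lower, beside 20.3% and 19.4%. TOP3B, a topoisomerase that partners the reader TDRD3, was listed at 0.175 ± 0.028 and 1.5 ± 0.06 TPM, a log2 fold change of 1.09. Only 6 to 68 recovered reads per library stood behind it. TOP3B reached 1 TPM only in the PRMT1 libraries, and so passed the filter only through the group where it was high. Its limma adjusted p of 0.00167, counted among the 4 that rose, is therefore not read as support for a rise. The same holds for its place among the 2 higher when scaled and the 2 higher under quantile normalization. TDRD7, TDRD3 and JMJD6 rose by 0.84, 0.41 and 0.26 (adjusted p at most 0.0405), the last 2 not after scaling. DDAH2, on this list as a turnover gene, fell by 0.51 on the log2 scale. The count of rising genes was 2 without vector control replicate 1, where 35.3% of all tested genes were higher. It was 1 without PRMT1 replicate 1 or 2, where 32.5% and 32.2% of all tested genes were higher. With either left out, TOP3B reached 1 TPM in too few libraries to be tested, so its loss from the count is not a lost call. The count of falling genes was 2 without vector control replicate 3, where 10% of all tested genes were lower. Of 13 tested genes listed under S-adenosylmethionine supply, 8 rose and 2 fell, beside 40.3% and 8.64% of all tested genes (median 0.46 as deposited). This list also holds genes of the use and turnover of S-adenosylmethionine, such as AMD1 and AHCY. Scaled, 3 were higher and 3 lower, beside 23.5% and 24.1%, and under quantile normalization 3 and 3 as well, beside 20.3% and 19.4%. MTRR, MAT2A, MAT2B and SHMT1 rose by 1.13, 0.72, 0.67 and 0.46 (adjusted p at most 0.00379), the last neither scaled nor under quantile normalization and MAT2B not after GC correction (0.15, adjusted p = 0.091). AHCY, which removes the methylation product S-adenosylhomocysteine, fell from 628 ± 41.9 to 462 ± 5.55 TPM (log2 fold change -0.44, limma adjusted p = 0.00144). SHMT2 fell by 0.44 on the log2 scale. The count of rising genes in this list was 5 without vector control replicate 3 or PRMT1 replicate 2, where 37.1% and 32.2% of all tested genes were higher.

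**Figure D5:**
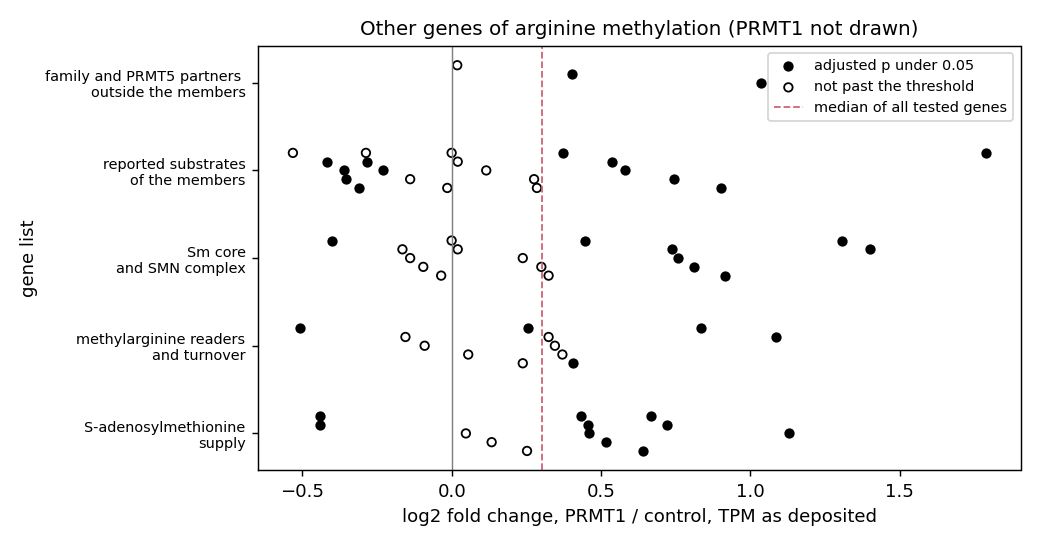
log2 fold change (TPM as deposited) of the tested genes of 5 lists, with filled points at a limma adjusted p under 0.05, the dashed line at the median of all tested genes (0.30) and PRMT1 not drawn. The Sm core and SMN complex holds 7 filled points above 0, S-adenosylmethionine supply holds 8, and substrates hold 6 on each side of 0.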

How the data were processed

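RNA of 6 HEK293T libraries was measured after polyA selection, per the labels' protocols. The deposited unit is TPM per gene and library, computed by the authors. Listed in the submitters' processing notes, with no role or order, are GRCh38, STAR 2.5.2b, Subread 1.5.2, featureCounts and Trimmomatic 0.36. Which annotation, strand setting and TPM formula were used is not stated in these sources. Columns were matched to samples by title. TPM times GENCODE 29 exonic length gave whole multiples of a library-specific step (95.5 to 95.7% of values under 50 reads within 0.05), which gave recovered reads; floors cover counting error only.

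Groups were compared with limma 3.58.1 in R 4.3.3 (lmFit, eBayes with trend) on log2(TPM + 1) for genes reaching 1 TPM in 3 or more libraries, with Benjamini-Hochberg adjustment over all of them and a threshold of 0.05. Such fold changes understate those of low genes. Shares and ratios used exact two-sided permutation tests. Of 57500 identifiers 40907 had a symbol. The fit was tested on simulated data. The rule for named genes took all 10 members, overlapping genes and pseudogenes, the family outside the members, up to 4 called genes by p in each direction of a list, and the 3 genes most correlated with PRMT5; 1 gene that it takes is not reported here. The members, lists and alternatives were chosen with earlier results of these data known.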

Additional observations from a re-analysis of the deposited data

How the results depend on the processing

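Results were recomputed with pseudocounts of 0.1 and 5 TPM, no filter, a filter at 5 TPM, 3 other scalings, GC correction, no variance trend, a replicate block, each library left out in turn, and vector control replicate 3 and PRMT1 replicate 2 left out together. Shares and ratios within a library are unaffected by a factor per library, and the shares were not recomputed under quantile normalization or GC correction. PRMT5, PRMT6, PRMT7 and PRMT9 kept direction and call under all 17 alternatives. At the filter of 5 TPM, PRMT7 and PRMT9 passed only through the PRMT1 libraries, so that setting is no support for these genes. Of the 10 genes, 3 were lower past the threshold after median-of-ratios scaling, after GC correction and without vector control replicate 3 and PRMT1 replicate 2 together, 0 with PRMT1 taken out, and 0 to 2 with a library left out. Of all tested genes, 24.1%, 25.3%, 13.8% and 5.68% were lower under the first 4 of these, and 6.27 to 10% with a library left out. PRMT2 was at -0.18 after median-of-ratios scaling, -0.16 under quantile normalization and -0.18 after GC correction, and CARM1 at 0.0058 with PRMT1 taken out. In the lists of other genes, with 62 tested, 16 were higher after median-of-ratios scaling, 17 under quantile normalization and 18 after GC correction. The shares of all tested genes were 23.5%, 20.3% and 23.7%. Each of these counts includes the transfected PRMT1 and TOP3B, which passed the filter only through the PRMT1 libraries. In the same lists 22 were lower after median-of-ratios scaling, 24 after GC correction and 8 under quantile normalization. Of all tested genes, 24.1%, 25.3% and 19.4% were lower. The cause was not tested.

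With PRMT1 counted in the family, whose sum it then dominates, the differences in share were -24.9 (type I), -17.8 (type II), -0.60 (type III and PRMT7), -2.89 (PRMT2), -2.48 (PRMT3), -1.79 (PRMT6), -17.5 (PRMT5) and -0.31 (PRMT9) percentage points. The share of CARM1 differed by -13.9 points without vector control replicate 3 and PRMT1 replicate 2 together, and that of PRMT9 by 0.64 points with 1 TPM added. The replicate number did not pair the libraries. Deviations of same-numbered libraries correlated at -0.033, 0.059 and 0.02. With the replicate block 6 of the 10 genes were still higher and 1 lower past the threshold, beside 40.9% and 8.57% of all tested genes. The replicate block left the mean differences in share and ratio as they were, with PRMT5 to CLNS1A at 1.08. Depth limits PRMT9, with 50 reads in its lowest library, and PRMT8, with at most 9.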
